A study of Mus musculus with 4 samples.

Results

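The RNA of RNase MRP (Rmrp) and the RNA of RNase P (Rpph1) were examined in granule-cell-enriched (GCE) tissue of the mouse cerebellar vermis, in 2 WT mice and 2 Kdm3b+/- mice. These RNAs were selected on their log2 fold change in earlier results of the same comparison, where both were higher in the Kdm3b+/- libraries, so their difference between genotypes is given here as a description and without a test. The genes were found by their NCBI gene numbers, and TPM was summed over entries with the same number. Of 5 structural noncoding RNAs named for this purpose, 2 (Rmrp and Rpph1) had an entry that could be used and 3 (Rn7sk, Rny1 and Rny3) were not analysed here. Rmrp and Rpph1 were 2 of 24532 genes in all and 2 of the 13652 genes whose mean TPM reached 1. TPM is the level of a transcript per unit of its length, scaled to a fixed total in each library.

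All mice were adult males, and the WT mice were littermates of the mutants. The Kdm3b+/- mice carried a gene-trap vector, pGT0lxf, in an intron of 1 copy of Kdm3b and an intact second copy. The allele came from 1 targeted ES cell line, and the line had been backcrossed to C57Bl/6N and then crossed to C57Bl/6J. The sources used here name no treatment of these mice. GCE tissue was cut by hand from slices of the vermis, and the labels name the tissue as cerebellum. Each mouse gave 1 library, so an SD is the spread between 2 mice. A standard error (SE) comes from the limma fit, which also draws on the spread of all tested genes.

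RNase P and RNase MRP are enzymes in which an RNA does the catalytic work and a shared set of proteins holds it in shape. RNase P cuts the leader from the front of tRNA precursors. RNase MRP cuts the precursor of ribosomal RNA, and mutations of its human RNA cause cartilage-hair hypoplasia. Both RNAs are made by RNA polymerase III from promoters that lie upstream of the transcript, with a TATA box bound by TBP, a proximal element bound by SNAPc and distal elements, such as an octamer, bound by OCT1 and ZNF143. The 7SK RNA (Rn7sk) and the Y RNAs (Rny1 and Rny3) use promoters of the same class. 7SK holds the elongation factor P-TEFb in an inactive particle with HEXIM and LARP7, and Y RNAs bind the Ro60 and La proteins. None of these RNAs ends in a poly(A) tail, so their recovery depends on how a library is made, and the type of library was not given in the sources used here.

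The RNAs are shown first because all later values count reads on them, with Rmrp complete and Rpph1 to its base 300. The sequences are those of the GENCODE M21 transcripts of GRCm38 on the minus strand, at chr4:43492788-43493058 for Rmrp and chr14:50807449-50807767 for Rpph1.
Rmrp: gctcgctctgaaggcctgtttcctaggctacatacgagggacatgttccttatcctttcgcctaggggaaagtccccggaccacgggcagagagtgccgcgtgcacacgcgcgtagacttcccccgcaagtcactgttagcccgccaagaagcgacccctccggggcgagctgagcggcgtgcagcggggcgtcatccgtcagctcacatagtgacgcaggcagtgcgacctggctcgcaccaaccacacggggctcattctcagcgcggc
Rpph1: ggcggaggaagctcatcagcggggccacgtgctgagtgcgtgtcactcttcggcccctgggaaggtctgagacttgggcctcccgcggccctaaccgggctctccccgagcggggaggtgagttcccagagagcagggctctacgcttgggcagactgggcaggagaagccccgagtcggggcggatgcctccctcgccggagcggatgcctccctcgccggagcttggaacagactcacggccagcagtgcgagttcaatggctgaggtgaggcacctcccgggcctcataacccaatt
The Rmrp transcript had 271 bases and a GC content of 64.2%, and the Rpph1 transcript had 319 bases and a GC content of 67.1%. In the abundance tables the entries were slightly longer. Rmrp, NCBI gene 19782, was listed at chr4:43492785-43493059, a span of 275 bases. Rpph1, NCBI gene 85029, was listed at chr14:50807447-50807771, a span of 325 bases. Each had 1 entry, on the minus strand.

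Both genes lay head to head with a protein-coding gene on the plus strand, so each polymerase III promoter shared a short interval with a polymerase II promoter. Rmrp faced Ccdc107, which encodes a coiled-coil protein, across 305 bases, and Rpph1 faced Parp2, an enzyme of the DNA damage response, across 174 bases. The intervals are shown because they hold the upstream promoters of the RNAs, in the sense of each RNA, ending at the side nearest to it. They came from the RefSeq promoter table of GRCm38.p6 through the entries of Ccdc107 (chr4:43493115-43493364) and Parp2 (chr14:50807772-50807945). The Rmrp stretch of 250 bases stops 55 bases short of the RNA, and the Rpph1 stretch is the whole interval. Capitals mark matches to the motifs searched.
Rmrp to Ccdc107: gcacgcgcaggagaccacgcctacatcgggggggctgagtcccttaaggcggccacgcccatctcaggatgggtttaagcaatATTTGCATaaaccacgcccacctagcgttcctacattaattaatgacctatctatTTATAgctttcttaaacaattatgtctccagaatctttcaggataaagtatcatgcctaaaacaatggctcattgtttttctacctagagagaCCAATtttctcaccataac
Rpph1 to Parp2: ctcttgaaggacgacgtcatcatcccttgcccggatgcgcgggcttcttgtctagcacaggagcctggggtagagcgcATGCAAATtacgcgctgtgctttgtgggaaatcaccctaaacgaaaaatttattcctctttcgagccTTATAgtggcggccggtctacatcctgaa
The motifs searched on both strands were TATAA (TATA box), ATGCAAAT (octamer), GGGCGG (GC box), CCCAGNATG (a core of the ZNF143 site) and CCAAT, and no match overlapped another. The Rpph1 interval held an octamer on the strand of the RNA, 96 to 89 bases upstream, and TATAA on the opposite strand, 29 to 25 bases upstream. The Rmrp stretch held an octamer on the opposite strand, 222 to 215 bases upstream, TATAA on the opposite strand at 167 to 163 bases, and CCAAT on the strand of the RNA at 74 to 70 bases. The GC box and the ZNF143 core were not matched in either stretch, and the 55 bases nearest to Rmrp were not searched. Over 32851 promoters of the RefSeq table, an octamer was found in 1.6% of upstream windows of 250 bases and 1.2% of windows of 174 bases. TATAA was found in 22.8% and 16.2% of them, CCAAT in 33.8% and 26.9%, the GC box in 32.7% and 29.9%, and the ZNF143 core in 1.6% and 1.2%. These matches are letters in a window and were not tested as binding sites.

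The libraries held between 4.92 and 6.69 gigabases aligned to genes, as coverage divided by FPKM gives them, and 17572 to 17991 genes were above a TPM of 0. Among entries with few bases, the most frequent number of aligned bases was 202 in each library and single multiples of 101 also occurred, so depth is given below in read pairs of 101 bases per read. Kdm3b, the trapped gene, was at 9.10 and 11.0 TPM in WT and at 8.30 and 7.90 TPM in Kdm3b+/-. The groups did not overlap, but the log2 fold change of -0.27 ± 0.17 (SE) did not pass (limma, adjusted p = 0.424). Exons upstream of the vector can still be transcribed from the trapped copy, and their part in this value was not tested. At the level of protein, the paper reported a significant reduction of Kdm3b in the vermis and flocculus of the mutants. Over the 13652 genes, limma called 63 differentially expressed (DEX) genes, 16 higher and 47 lower in Kdm3b+/- mice, or 0.461% of the tested genes in either direction and 0.117% for those higher. A DEX gene had to differ over 1.2-fold with its adjusted p below 0.05. The paper called more DEX genes in these mice with DESeq2, a different test. A gene not called here may therefore be among the paper's DEX genes. The median log2 fold change of all tested genes was -0.07.

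Rmrp was higher in both Kdm3b+/- mice than in either WT mouse. Its TPM was 10.1 in WT mouse 1 and 17.3 in WT mouse 2, and 36.4 and 40.7 in Kdm3b+/- mice 1 and 2. The groups did not overlap, and the WT mice differed from each other more than the mutants did, by 1.71-fold against 1.12-fold. The means were 13.7 ± 5.10 and 38.5 ± 3.04 TPM (SD, n = 2 each), a ratio of 2.81. Taken mouse by mouse, the smallest ratio between a Kdm3b+/- and a WT mouse was 2.10 and the largest was 4.03. On the scale of log2(TPM + 1), the difference between the genotypes was 1.47 ± 0.23 (SE), while the mice of a genotype lay 0.72 apart in WT and 0.16 apart in Kdm3b+/-. The SD between mice on this scale, pooled over the genotypes, was 0.37, larger than the SE of the fit.

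The reads behind the Rmrp values were few. The entry held 6156 and 11765 aligned bases in WT, against 26466 and 34190 in the mutants. This equals about 30 (20.2 to 42.8) and 58 (44.0 to 75.0) read pairs in WT, and 131 (110 to 155) and 169 (144 to 196) in Kdm3b+/-, with exact 95% Poisson intervals in parentheses. Per gigabase aligned, the values were 6.10 (4.11 to 8.71) and 10.1 (7.67 to 13.1) pairs in WT, against 23.0 (19.2 to 27.3) and 25.3 (21.6 to 29.4) in Kdm3b+/-. These intervals overlapped between the mice of each genotype and not between genotypes. The intervals cover counting error only and not the spread between mice, and reads without molecular identifiers are not independent molecules. The mean coverage of the entry was 22.4, 42.8, 96.2 and 124 in WT mice 1 and 2 and Kdm3b+/- mice 1 and 2. The FPKM values were 4.55, 7.45, 16.9 and 18.6 in the same order, which is the order of the TPM values. Within each library, Rmrp lay above 36.2% and 46.1% of the tested genes by TPM in WT, and above 65.7% and 67.1% in the mutants.

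Rpph1 was also higher in both Kdm3b+/- mice. Its TPM was 20.01 and 28.2 in WT mice 1 and 2, and 79.5 and 60.1 in Kdm3b+/- mice 1 and 2. The groups did not overlap, and here the first Kdm3b+/- mouse was the highest library, whereas for Rmrp it was the second. The means were 24.1 ± 5.76 and 69.8 ± 13.7 TPM (SD, n = 2 each), a ratio of 2.90, with mouse-by-mouse ratios from 2.13 to 3.97. On the log2(TPM + 1) scale the difference was 1.50 ± 0.20 (SE), and the mice of a genotype lay 0.47 apart in WT and 0.40 apart in Kdm3b+/-. The pooled SD between mice was 0.31, again larger than the SE of the fit.

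Rpph1 had more reads than Rmrp in each library. Its 14428 and 22619 aligned bases in the WT mice equal about 71 (55.5 to 89.6) and 112 (92.2 to 135) read pairs. Its 68368 and 59733 aligned bases in the mutants equal about 338 (303 to 376) and 296 (263 to 332) read pairs. Per gigabase aligned, the values were 14.4 (11.3 to 18.2) and 19.5 (16.1 to 23.5) pairs in WT, against 59.4 (53.2 to 66.0) and 44.2 (39.3 to 49.6) in Kdm3b+/-. These intervals overlapped between the WT mice, but not between the 2 mutants nor between genotypes. The coverage was 44.4 and 69.6 in WT against 210 and 184 in Kdm3b+/-, and the FPKM was 9.02 and 12.1 against 36.9 and 27.5. By TPM, Rpph1 lay above 51.1% and 56.9% of the tested genes in WT, and above 80.5% and 74.9% in the mutants.

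**Figure D1:**
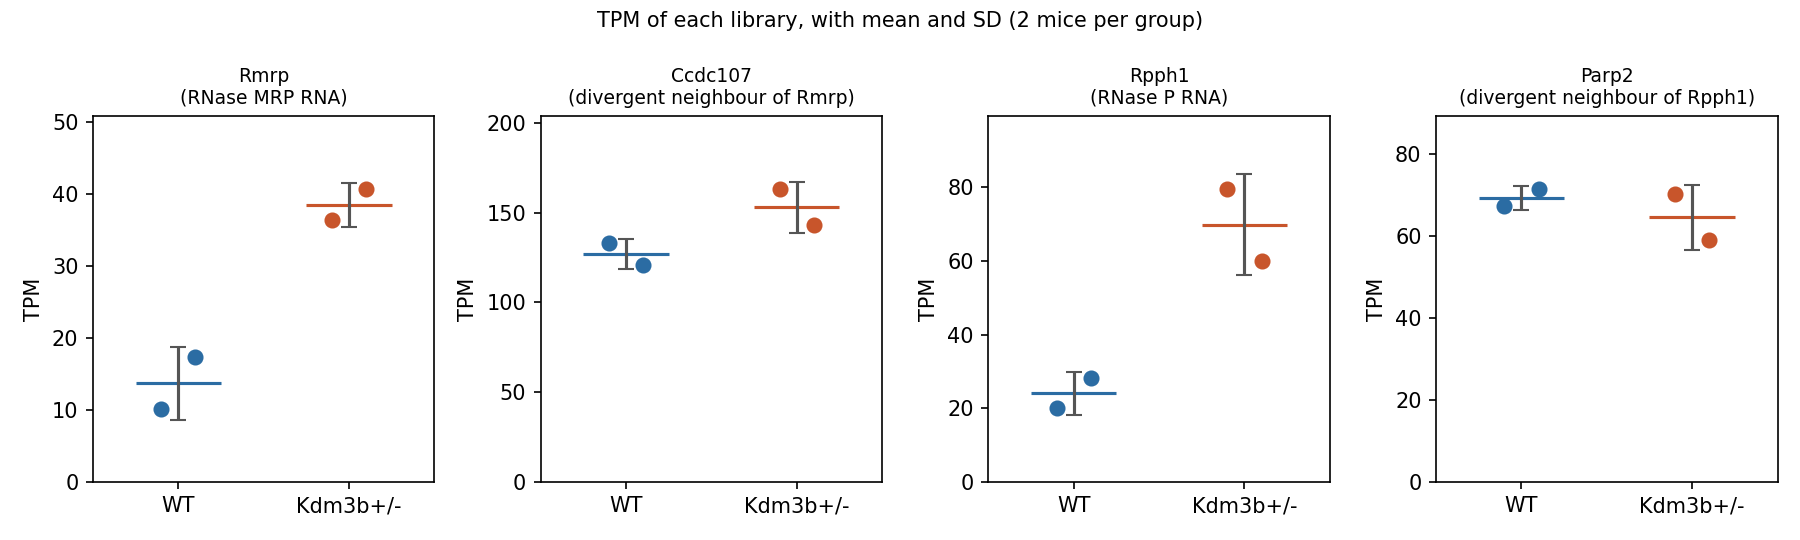
TPM (vertical axis) of Rmrp, Ccdc107, Rpph1 and Parp2 in each library, with WT mice in blue and Kdm3b+/- mice in orange (horizontal axis), lines at the group means and bars of ± 1 SD (n = 2). The Kdm3b+/- points of Rmrp (36.4 and 40.7) and Rpph1 (79.5 and 60.1) lie above both WT points, Ccdc107 is shifted little, and the points of Parp2 overlap.

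The RNAs had a similar proportion to each other in both genotypes. Both were selected on a high log2 fold change, so this likeness follows in part from the selection. The TPM of Rpph1 divided by that of Rmrp was 1.98 and 1.63 in WT, against 2.19 and 1.48 in Kdm3b+/-, so Rpph1 was the higher per length in all 4 libraries and the ranges of the ratio overlapped. Among the log2 fold changes of the 13652 tested genes, that of Rpph1 ranked 11 from the highest and that of Rmrp ranked 14, places that follow from how the RNAs were selected. The central 95% of the log2 fold changes lay between -0.66 and 0.49. Groups that did not overlap, with Kdm3b+/- higher, were found in 19.2% of tested genes, and in either direction in 51.3%. An exact permutation test of 2 mice against 2 cannot give a two-sided p below 0.33, and a higher level in this bulk tissue cannot be told apart from more cells of a type that holds more of the RNA.

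**Figure D2:**
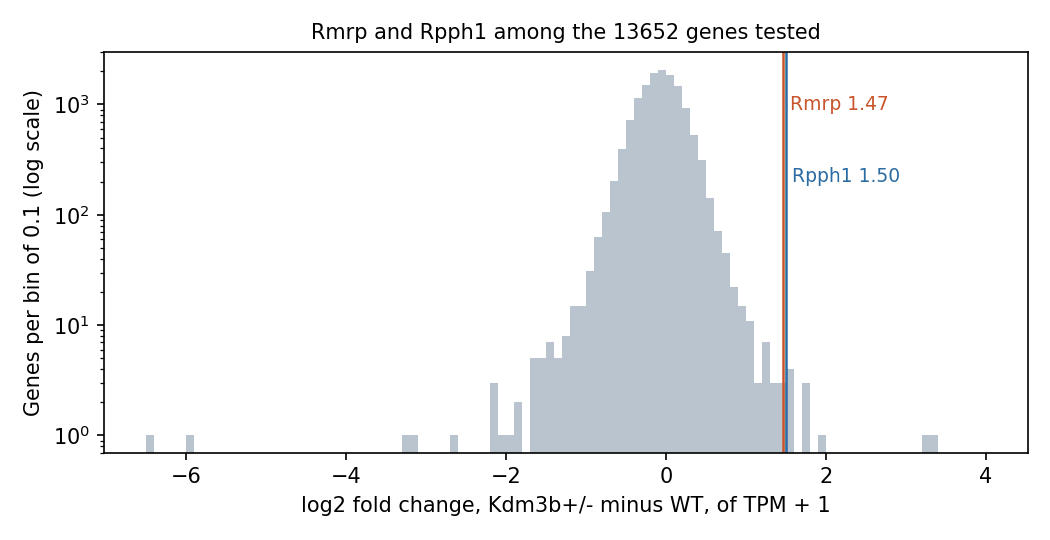
Number of tested genes (vertical axis, log scale) in each bin of 0.1 of the log2 fold change, Kdm3b+/- minus WT, of TPM + 1 (horizontal axis). Lines mark Rmrp at 1.47 and Rpph1 at 1.50, the values on which the RNAs were selected, in the upper tail of the histogram.

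WT mouse 1 was the lowest library for both RNAs and also stood apart in other genes. Its summed TPM of Purkinje cell markers was 1688, against 730 in WT mouse 2 and 962 and 787 in the mutants. Without this library, the log2 fold change was 1.11 for Rmrp and 1.27 for Rpph1, the lowest values when each library was left out in turn. Without WT mouse 2 it was 1.83 for Rmrp and 1.74 for Rpph1, the highest values.

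**Figure D3:**
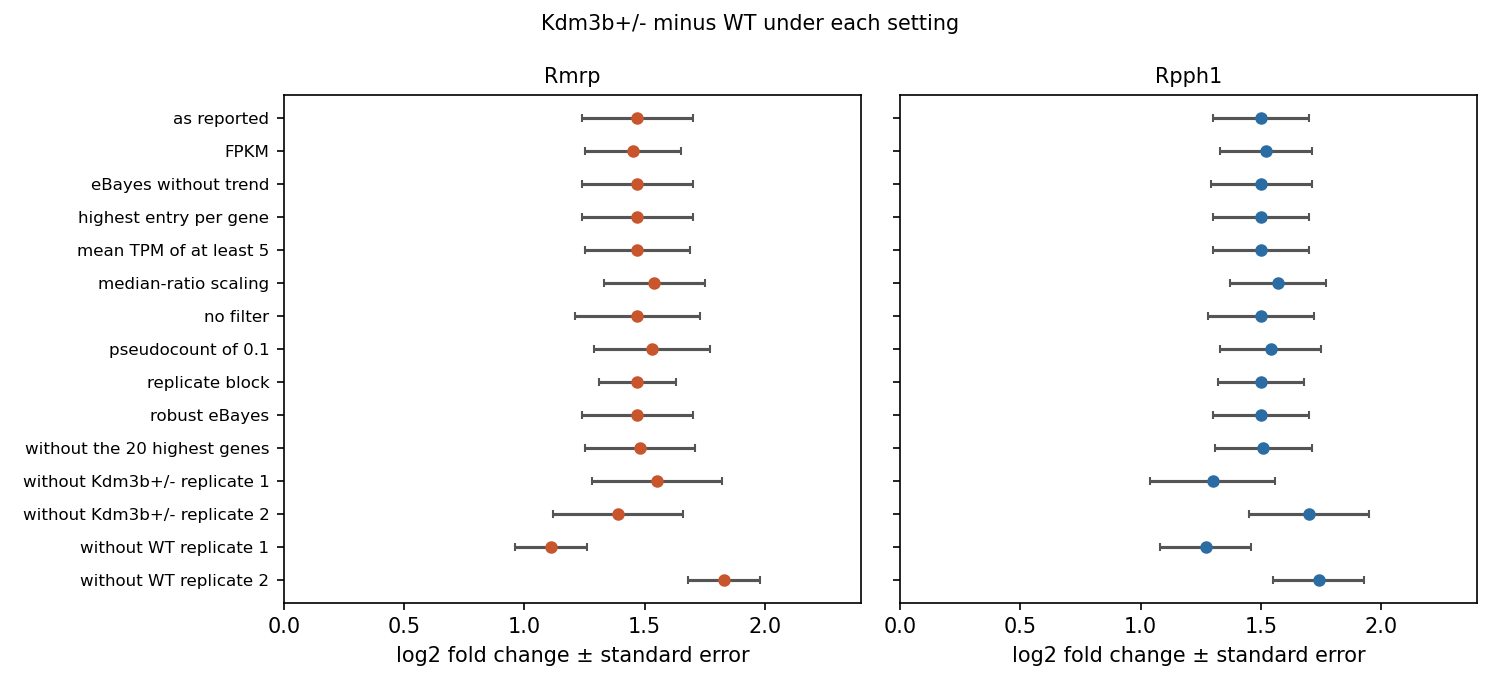
Log2 fold change, Kdm3b+/- minus WT (horizontal axis, bars of ± 1 standard error), of Rmrp and Rpph1 under each processing setting (vertical axis). The values lie between 1.11 and 1.83 for Rmrp and between 1.27 and 1.74 for Rpph1, with both ends of each range reached by leaving out a WT mouse.

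The genes that share an interval with the RNAs showed smaller differences. Ccdc107, divergent from Rmrp, was at 133 and 121 TPM in WT and at 163 and 143 TPM in Kdm3b+/-. Its groups did not overlap, but the log2 fold change of 0.26 ± 0.14 did not pass (limma, adjusted p = 0.352). Rmrp divided by Ccdc107 was 0.0758 and 0.143 in WT and 0.223 and 0.285 in Kdm3b+/-, a log2 difference of 1.27. Parp2, divergent from Rpph1, had a TPM of 67.2 and 71.4 in WT and 70.2 and 58.9 in Kdm3b+/-. Its groups overlapped, with a log2 fold change of -0.11 ± 0.15 (limma, adjusted p = 0.74). Rpph1 divided by Parp2 was 0.298 and 0.394 in WT and 1.13 and 1.02 in Kdm3b+/-, a log2 difference of 1.65. On the other side, Sit1 lay 9075 bases from Rmrp and was listed at a TPM of 0 in all 4 libraries. Ccnb1ip1 lay 11718 bases from Rpph1 and had a TPM of 0, 0.108, 0.304 and 0.

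No other entry of the abundance tables overlapped either RNA, but annotations differ at these loci. In GENCODE M21, 1 of 6 Ccdc107 transcripts has an exon that overlaps 124 bases of the Rmrp entry on the opposite strand. Likewise, 1 of 2 Ccnb1ip1 transcripts has an exon that overlaps 233 bases of the Rpph1 entry on the same strand. Whether the counting used strand was not stated, so reads of such transcripts cannot be told apart from reads of the RNAs. Ccdc107 was far above Rmrp in TPM, and Ccnb1ip1 was near 0 in each library. The 3 genomic copies of the RNase P RNA with an entry, Rprl1, Rprl2 and Rprl3, were listed at 0 in all libraries, and how reads that match several copies were assigned was not stated.

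The protein subunits of RNase P and RNase MRP were measured with the RNAs, and all 11 passed the TPM minimum. None was DEX by limma. At an unadjusted p under 0.05, 3 were higher and 0 lower in Kdm3b+/- mice, where 5.47% of all tested genes were higher and 17.0% differed in either direction. Of the 11 log2 fold changes 8 were above 0, and their median was 0.14, where that of all tested genes was -0.07. The groups did not overlap in 6 that were higher and 1 that was lower, where all tested genes gave 19.2% higher and 51.3% in either direction. Pop7, a subunit that forms a dimer with Rpp25 on the RNA, had the highest value at 0.57 ± 0.14 (SE), with a TPM of 79.7 and 71.5 in WT and 117 and 109 in Kdm3b+/- (limma, adjusted p = 0.127). Pop1, the large scaffold subunit, had the lowest value at -0.09 ± 0.18, with a TPM between 2.45 and 2.79 in the 4 libraries (limma, adjusted p = 0.819). Summed over the 11 genes, the TPM was 666 and 649 in WT and 847 and 759 in Kdm3b+/-. The groups of this sum did not overlap.

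RNA polymerase III and its factors were all measured, with 37 of 37 listed genes tested. The list was not limited to the factors named above for these promoters, and also held Brf1, Gtf3a, Maf1 and the Gtf3c genes. None of the 37 was DEX by limma, and their median log2 fold change was -0.06. At an unadjusted p under 0.05, 3 were higher and 3 lower, against 5.47% higher and 17.0% in either direction among all tested genes. The groups did not overlap in 9 that were higher and 10 that were lower, against 19.2% higher and 51.3% in either direction, so these counts lay near those of all genes. Polr2f, a subunit shared by the nuclear RNA polymerases, had the highest value, with a TPM of 53.6 and 49.8 in WT and 75.8 and 73.2 in Kdm3b+/-. Its log2 fold change was 0.52 ± 0.14 (limma, adjusted p = 0.151). Snapc4, the subunit of SNAPc that contacts the upstream promoter element, had the lowest value, with a TPM of 11.3 and 16.5 in WT and 8.82 and 11.5 in Kdm3b+/-. Its groups overlapped, and its log2 fold change was -0.41 ± 0.21 (limma, adjusted p = 0.348).

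The partners of the RNAs that were not analysed here, and other steps of tRNA maturation, also held no DEX gene. Of 7 genes of the 7SK particle and P-TEFb, 0 were higher and 1 was lower at an unadjusted p under 0.05, with a median of -0.10. That gene was Hexim2, which inhibits P-TEFb when bound to 7SK, at 35.2 and 42.8 TPM in WT and 26.6 and 26.4 in Kdm3b+/- (log2 fold change -0.54 ± 0.15, limma adjusted p = 0.172). The highest was Larp7, which binds the end of 7SK, at 0.19 ± 0.14 (adjusted p = 0.509). Ro60 and Ssb, which encode the Ro60 and La proteins, had log2 fold changes of -0.18 ± 0.16 and 0.11 ± 0.13, and 0 of the 2 passed at an unadjusted p under 0.05. Among 12 genes for the processing of tRNA ends, tRNA splicing and mitochondrial RNase P, 0 were higher and 0 lower at an unadjusted p under 0.05. Their median was -0.12, from -0.34 for Elac1, a tRNA 3′ processing enzyme, to 0.15 for Trmt10c, a subunit of the protein-only mitochondrial RNase P.

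**Figure D4:**
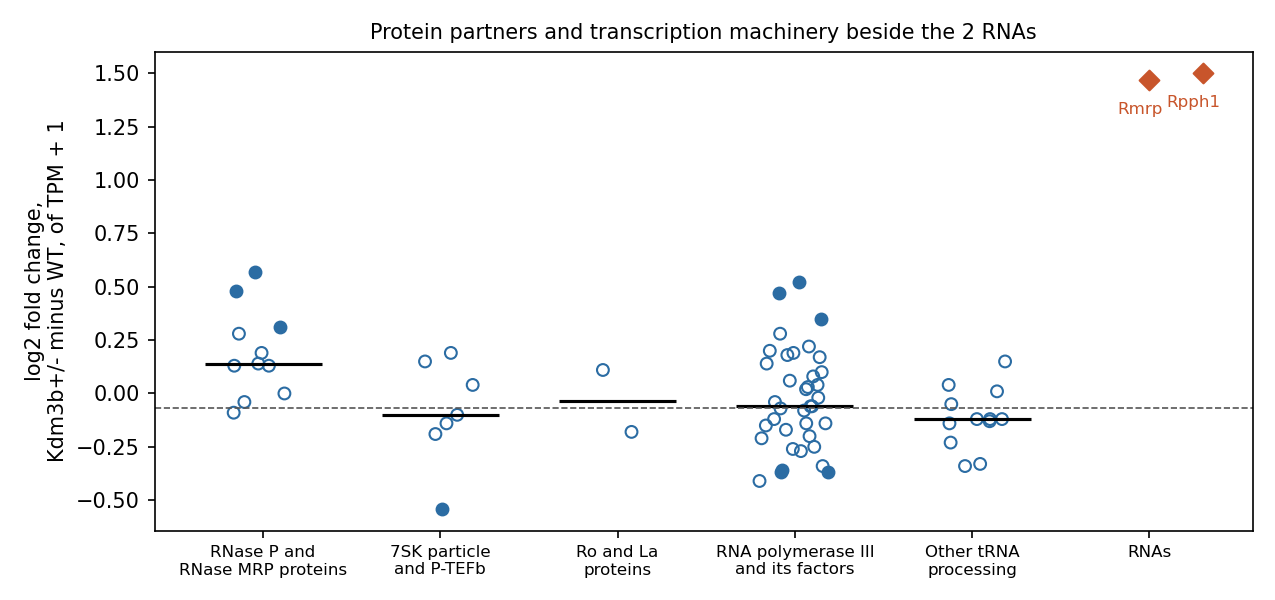
Log2 fold change, Kdm3b+/- minus WT, of TPM + 1 (vertical axis) of each gene in 5 groups of partner and pathway genes and of the 2 RNAs (horizontal axis), with filled points at an unadjusted p under 0.05, bars at the group medians and a dashed line at the median of all tested genes (-0.07). Rmrp (1.47) and Rpph1 (1.50), at the values on which they were selected, lie above every gene of the groups, of which Pop7 is the highest at 0.57.

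Rmrp and Rpph1 were detected in a table that held few other structural noncoding RNAs. Of 25 further RNAs of this kind, 7 had an entry and 0 reached the TPM minimum. Terc, the telomerase RNA, had a TPM of 0, 0.0988, 0.0409 and 0 in WT mice 1 and 2 and Kdm3b+/- mice 1 and 2. Rnu12, an RNA of the minor spliceosome, had 0, 0.280, 1.14 and 0. Vaultrc5 was at 0.453 or below and Bc1 at 0.198 or below. The positions listed under the gene number of Bc1 span 83655260 bases from the lowest start to the highest end. The Bc1 value therefore cannot be read as the level of that RNA. Rnu6, a spliceosomal RNA that every cell uses, was listed at 0 in every library, as were Rnu7 and Rnu11. The entries of Rnu6 and Rnu7 spanned only 27 and 25 bases, less than a read of 101 bases. Their values of 0 therefore cannot be read as absence of these RNAs from the libraries.

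Other short entries, with a genomic span of at most 500 bases, gave the nearest set for comparison, and 228 of them were tested beside the 2 RNAs. Of these 1 was DEX and higher and 1 was DEX and lower, against 0.117% higher and 0.461% in either direction among all tested genes. A log2 fold change above 0 was found in 140 of the 228, and 4 exceeded Rmrp. Among these 4 were Scarna10 and Snord17, described below, which reached the mean TPM of 1 only through the Kdm3b+/- libraries. Their median was 0.13, where that of all tested genes was -0.07. The groups did not overlap in 60 that were higher and 41 that were lower, where all tested genes gave 19.2% higher and 51.3% in either direction. The 65 small nucleolar RNAs had a median of 0.08 and the 131 microRNA entries a median of 0.06. Entries of both kinds often lie within longer host genes, whose reads they can share. The 7 entries of 200 to 400 bases, the span nearest to that of the RNAs, were all above 0, with a median of 0.45. Core histone genes among these short entries, whose messenger RNAs also lack a poly(A) tail, were looked at after their values had been seen. Core histone genes with a span over 500 bases were not counted. Of the 21 short ones, 21 were above 0 with a median of 0.45, and none was DEX by limma. The groups did not overlap in 15 that were higher (19.2% of all tested genes). At an unadjusted p under 0.05, 10 were higher (5.47% of all tested genes). The part of these 21 genes in the values of Rmrp and Rpph1 was not tested.

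Several of these short RNAs had the pattern over the 4 libraries most like that of the 2 RNAs. Likeness was the Euclidean distance between log2(TPM + 1) values, each gene centred on its own mean. Nearest to Rmrp was Snora34, a guide for pseudouridylation, at a distance of 0.36, with a TPM of 1.08 and 1.64 in WT and 6.27 and 7.07 in Kdm3b+/-. The Snora34 entry overlaps that of Mir1291 on the same strand and lies within Kansl2, so its reads may be split. Gkn3, which encodes a gastrokine, came next at 0.37, with a TPM of 0.643 and 1.88 in WT and 4.65 and 3.72 in Kdm3b+/-. Aqp4, the water channel of astrocytes, followed at 0.42, with 59.2 and 82.3 in WT and 150 and 152 in Kdm3b+/-. Rpph1 was place 4 at 0.43.

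Nearest to Rpph1 was Scarna10, a guide RNA of Cajal bodies, at a distance of 0.31, with a TPM of 0.451 and 0.655 in WT and 4.51 and 2.34 in Kdm3b+/-. Snord17, a small nucleolar RNA, was at 0.31 as well, with 0.557 and 1.14 in WT and 6.28 and 3.10 in Kdm3b+/-. Gkn3 was next at 0.36, and Rmrp was place 6 at 0.43. Scarna10, Snord17 and Gkn3 were highest in Kdm3b+/- mouse 1, as was Rpph1, whereas Snora34 and, by little, Aqp4 were highest in Kdm3b+/- mouse 2, as was Rmrp. Gkn3 was among the nearest to both RNAs, so the highest mouse does not separate the 2 sets. The entries of Scarna10 and Snord17 lie within longer host genes, Ncapd2 and Snx5. Scarna10 and Snord17 had WT means of 0.553 and 0.847 TPM, so they reached the mean TPM of 1 only through the Kdm3b+/- libraries. Their direction was thus partly set by the filter, and their WT values lay near the floor. These likenesses rest on 4 libraries and on the same contrast that selected the RNAs.

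**Figure D5:**
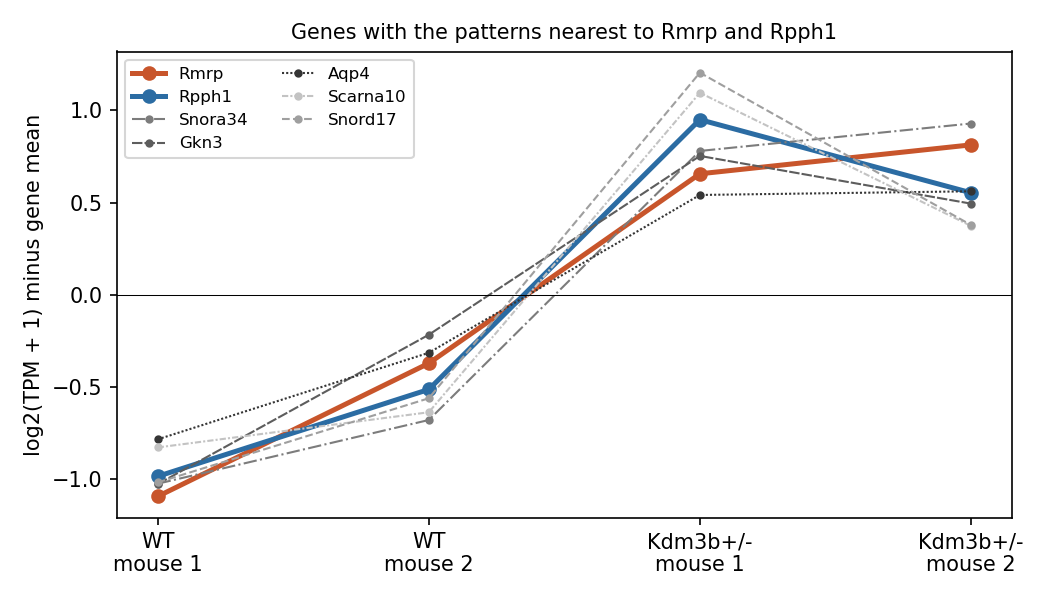
Log2(TPM + 1) minus the mean of the gene (vertical axis) in each of the 4 libraries (horizontal axis) for Rmrp, Rpph1 and the 5 genes with the nearest patterns. Each line is lower in WT mice than in Kdm3b+/- mice, and the lines of Rpph1, Scarna10, Snord17 and Gkn3 peak in Kdm3b+/- mouse 1.

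Lists of cell type markers and red cell genes had median log2 fold changes between -0.38 and 0.41. Single genes of these lists ranged from -5.98 (Hbb-bs) to 1.10 (Aqp4). The 11 granule cell markers had a summed TPM of 4889 and 5767 in WT and 5330 and 5654 in Kdm3b+/-, with a median log2 fold change of 0.10, and defining genes of the granule cell were present in the GCE tissue. The 10 tested Purkinje cell markers of 12 all had log2 fold changes below 0, with a median of -0.38 and none DEX by limma (1 lower at an unadjusted p under 0.05), and Foxp2 and Skor2 were below the TPM minimum. This direction rested on WT mouse 1, whose sum is given above: without it, a comparison chosen after seeing the data, 6 of the 10 were above 0 and the median was 0.11. The 10 astrocyte and Bergmann glia markers summed to 4443 and 3656 in WT and 3272 and 3169 in Kdm3b+/-, with a median of -0.13, although Aqp4 was DEX and higher (log2 fold change 1.10 ± 0.17, limma adjusted p = 0.0329). Oligodendrocyte markers summed to between 15013 and 17976 in the 4 libraries, with 1 of 10 DEX (Mobp, lower at -0.93 ± 0.11, limma adjusted p = 0.0133), microglial markers to between 348 and 381, endothelial markers to between 271 and 312, and meningeal and mural markers to between 59.2 and 70.9. Red cell genes summed to between 1142 and 1928, and Hbb-bs was at 506 and 8.08 in WT and at 0.142 or below in Kdm3b+/-. The part of cell composition in the values of Rmrp and Rpph1 was not tested.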

How the data were processed

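Bulk RNA of vermal GCE tissue was sequenced in 2 WT and 2 Kdm3b+/- mice, and samples were grouped by the genotype in their labels. The authors trimmed low-quality bases, aligned reads with STAR and estimated abundances with StringTie. Versions, genome build, annotation, library type and strand were not given in the sources used here. The deposited coverage is the mean depth over the exons of a gene, without normalization. The deposited FPKM is scaled by the authors to length and mapped fragments, and the deposited TPM to length and a total of 1000000 per library.

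Symbols were matched from a RefSeq table for 24462 of 24532 gene numbers, and entries sharing a number (143 genes) were summed. The values are not counts, so log2(TPM + 1) was fitted, for genes whose mean TPM reached 1, with limma version 3.58.1 (eBayes with trend) in R version 4.3.3. Genotype was the sole term. Benjamini-Hochberg adjustment ran over the 13652 genes tested. The pseudocount of 1 understates changes of low genes. The replicates are separate mice. Standard errors and p-values use a variance that limma moderates toward the trend of all tested genes, and they measure only the spread between these libraries. Aligned bases were coverage times span, with pairs counted at 101 bases per read. Genes were named by a rule: the RNAs, adjacent genes, the highest and lowest or called gene of each list, the 3 nearest patterns of each RNA, and Kdm3b. The RNAs, the lists and the rule were chosen with earlier results of these data known. Histone genes, classes of short RNAs, entries of 200 to 400 bases and the copies of the RNase P RNA were added after seeing the data. Aqp4, Mobp and Hbb-bs as cell markers were picked out with their values in view. Alternatives were a pseudocount of 0.1, FPKM, no filter or a mean TPM of 5, median-ratio scaling, TPM without the 20 highest genes, other eBayes settings, the highest entry per gene, the adjusted p alone, the replicate number as a block and each library left out. The fit was tested on simulated data with normal noise and the same spread for every gene, so genes of unequal spread were not covered. Tables, sequences and plots used pandas 2.3.3, NumPy 2.4.6, SciPy 1.17.1, Biopython 1.88 and Matplotlib 3.10.9 under Python 3.11.15.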

Additional observations from a re-analysis of the deposited data

How the results depend on the processing

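Of the 10 alternatives that used every library, 6 cannot move the fold change of a gene with 1 entry. Under the 4 that can (a pseudocount of 0.1, FPKM, median-ratio scaling and TPM without the 20 highest genes), the log2 fold change was between 1.45 and 1.54 for Rmrp and between 1.51 and 1.57 for Rpph1. When each library was left out in turn the values ranged from 1.11 to 1.83 and from 1.27 to 1.74. The number of DEX genes moved more. It was 63, and became 39 with FPKM, 37 with eBayes without trend, 1 without a filter on TPM and 600 with the replicate block. It was 21 without WT mouse 1, 28 without WT mouse 2, 121 without Kdm3b+/- mouse 1 and 188 without Kdm3b+/- mouse 2, where the lone mouse is assumed to vary like the other group. The 5 lists of partner and pathway genes held 0 DEX genes under every alternative but the replicate block, where 1 RNase P and RNase MRP protein gene (Pop7, limma adjusted p = 0.0298, 0.127 without the block) and 1 polymerase III gene (Polr2f, adjusted p = 0.0447, 0.151 without the block) passed. Without WT mouse 1 the median log2 fold change of Purkinje cell markers turned from -0.38 to 0.11, and it lay between -0.87 and -0.25 without any other library. The replicate numbers mark different mice, and the deviations of same-numbered libraries correlated at 0.121, so the numbers do not establish pairs. Of the 600 DEX genes with the block, 173 were higher and 427 lower, and all 63 were among them. The spread between mice rests on 2 mice per group, and the counting intervals of Rmrp and Rpph1 do not cover it.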
